A study of Homo sapiens with 9 samples.

Results

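The keratin genes are the 55 protein-coding genes of the GENCODE 44 annotation on GRCh37 whose symbol is KRT followed by a number and at most 1 letter from A to C, out of 20136 protein-coding genes. Of these, 28 lie in the type I cluster on chromosome 17, which runs from KRT222 at 38810917 to KRT17 at 39781094, and 27 lie in the type II cluster on chromosome 12, from KRT80 at 52562780 to KRT18 at 53346690. KRT18 encodes a type I protein but its gene sits at the end of the type II cluster, and it was counted there. ChIP-seq was used to map histone marks over these genes in BEAS-2B, a virus-immortalized line from human bronchial epithelium, with 1 library for each of 4 marks in WT and in mdig KO cells. Mdig is a JmjC domain protein encoded by RIOX2. The KO cells came from colonies that lost the mdig protein after transfection of a CRISPR-Cas9 vector, and the WT cells came from colonies that went through the same vector and kept the protein, so both carried the blasticidin selection of that vector and both were grown with blasticidin. Whether a library was made from 1 colony or from several is not stated in the labels or the methods, and a difference between WT and KO cannot be told apart from a difference between colonies. There were no replicates, so no difference below has a test.

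Keratins are the intermediate filament proteins of epithelial cells. A type I chain pairs with a type II chain, as KRT18 does with KRT8 in simple epithelia and KRT14 with KRT5 in basal cells of stratified epithelia, and cells that differentiate, repair a wound or build a hair switch on further pairs. The genes of each type stand side by side in 1 cluster, in which an epithelial cell uses a few genes and keeps their neighbors silent. H3K4me3 is the mark of active promoters, H3K27me3 is laid down by Polycomb proteins on silent developmental genes, H3K9me3 marks constitutive heterochromatin, and H3R8me2a is an asymmetric arginine mark on the same histone tail.

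The promoters of KRT71, a keratin of the hair's inner root sheath, and of KRT76, a keratin of the palate, are shown first, as examples of the 7 keratin promoters that had H3K27me3 alone in WT and H3K27me3 with H3K9me3 in KO. Each sequence was read from GRCh37, which has the coordinates of hg19, and runs 5′ to 3′ on the strand of the gene from 250 bases before to 30 bases after the start of the Ensembl canonical transcript. The capitals mark TATAAA, the only one of 3 motifs with a match in them, the others being TGANTCA, the letters bound by AP-1 factors, and GGGCGG, the GC box, each searched on both strands.
KRT71, chr12:52946900-52947179, minus strand: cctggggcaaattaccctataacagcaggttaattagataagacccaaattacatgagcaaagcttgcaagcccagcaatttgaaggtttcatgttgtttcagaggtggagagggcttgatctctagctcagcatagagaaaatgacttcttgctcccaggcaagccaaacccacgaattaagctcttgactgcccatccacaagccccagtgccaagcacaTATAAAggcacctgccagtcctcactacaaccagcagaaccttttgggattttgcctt
KRT76, chr12:53171100-53171379, minus strand: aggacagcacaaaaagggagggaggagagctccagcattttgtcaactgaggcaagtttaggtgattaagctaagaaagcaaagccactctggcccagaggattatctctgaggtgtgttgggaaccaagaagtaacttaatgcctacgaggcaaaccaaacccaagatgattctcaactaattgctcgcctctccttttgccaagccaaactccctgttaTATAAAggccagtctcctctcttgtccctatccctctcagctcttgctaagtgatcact

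TATAAA was in 27 of the 55 keratin promoters of this length (49.1%) and in 9.65% of all 20132 promoters read the same way. GGGCGG was in 21.8% of keratin promoters and in 60.1% of all promoters, and TGANTCA, which reads the same on both strands, was in 5 keratin promoters (9.09%) and in 5.25% of all. The median GC content was 47.5% in keratins and 63.2% over all genes, and the median number of CG dinucleotides was 3 and 21. KRT71 and KRT76 each had a GC content of 46.8%, with 1 and 2 CG dinucleotides, and the first base of their TATAAA lay at -28 and -29 from the start. These matches describe the letters in the window and were not tested for use.

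The deposited islands give a chromosome, a start and an end on a grid of 200 bp and no height, so read depth is unknown for every island and a longer island cannot be told from a more permissive call. An island says that a mark passed the caller's limit there and not in how many cells, and islands of different marks come from separate immunoprecipitations, so overlap of marks below means overlap of islands. The value of a gene is the number of its bases, body plus 5 kb upstream, that lie under islands. A gain is a gene with at least 2 times the WT bases in KO and at least 1 kb more, and a loss is the opposite. KO had more islands and more covered bases in total for H3K9me3 (12094 islands over 52.8 Mb in WT, 32264 over 194.9 Mb in KO) and longer coverage for H3K27me3 (256.1 Mb and 341.6 Mb), H3R8me2a (62.4 Mb and 100.4 Mb) and H3K4me3 (88.8 Mb and 102.1 Mb). Beside the label of an epithelial line, cell type markers were read for H3K4me3 within 2 kb of the canonical start. Here and below, a mark counted there with at least 1 base of an island. H3K4me3 was there for 8 of 11 epithelial markers in both cells, the exceptions being KRT5, KRT14 and KRT19, and also for 6 of 7 mesenchymal markers. Over all genes it was there for 67.2% in WT and 66.7% in KO, so these counts cannot decide the label. PTPRC, the pan-leukocyte marker, had none at the start in either cell. Of 6 leukocyte markers, 2, CD14 and CD68, had it in both. Of 4 ciliated and secretory airway markers, FOXJ1 had it in WT and none had it in KO.

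H3K9me3 gave the most calls among keratin genes. No keratin region had an H3K9me3 island in WT, and 20 of 55 (36.4%) had a gain in KO against 27.6% of all protein-coding genes, with 0 losses against 0.874%. The 20 gains became 17 with canonical transcripts and 15 with the gene body alone. No share over all genes is given for those 2 settings, so the excess over all genes depends on the extent used. H3K27me3 moved both ways, with 5 gains (9.09%, against 6.49% of all genes) and 7 losses (12.7%, against 3.29%). A loss needs the mark in WT, where 28 of 55 keratins had an H3K27me3 island, against 5560 of 20136 genes. The shares of losses therefore have different baselines. H3R8me2a had 7 gains (12.7%, against 20.0%) and 1 loss (1.82%, against 8.04%), and H3K4me3 had 1 gain (1.82%, against 4.10%) and 0 losses (against 2.04%). When both libraries of a mark were brought to equal total length, the keratins had 18 gains and 0 losses of H3K9me3 while all genes had 19.4% and 8.17%, and 4 gains and 8 losses of H3K27me3 while all genes had 5.01% and 3.98%. In all, 34 keratins had at least 1 call and 21 had none. Of those 21, 11 had no island of any mark in either library. Among them were KRT6B, a wound keratin, KRT12 of the cornea, KRT20 of the gut and the hair keratins KRT31, KRT34, KRT35 and KRT36. Neither the 34 nor the 11 has a share over all genes beside it, so neither is read as particular to keratins.

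**Figure D1:**
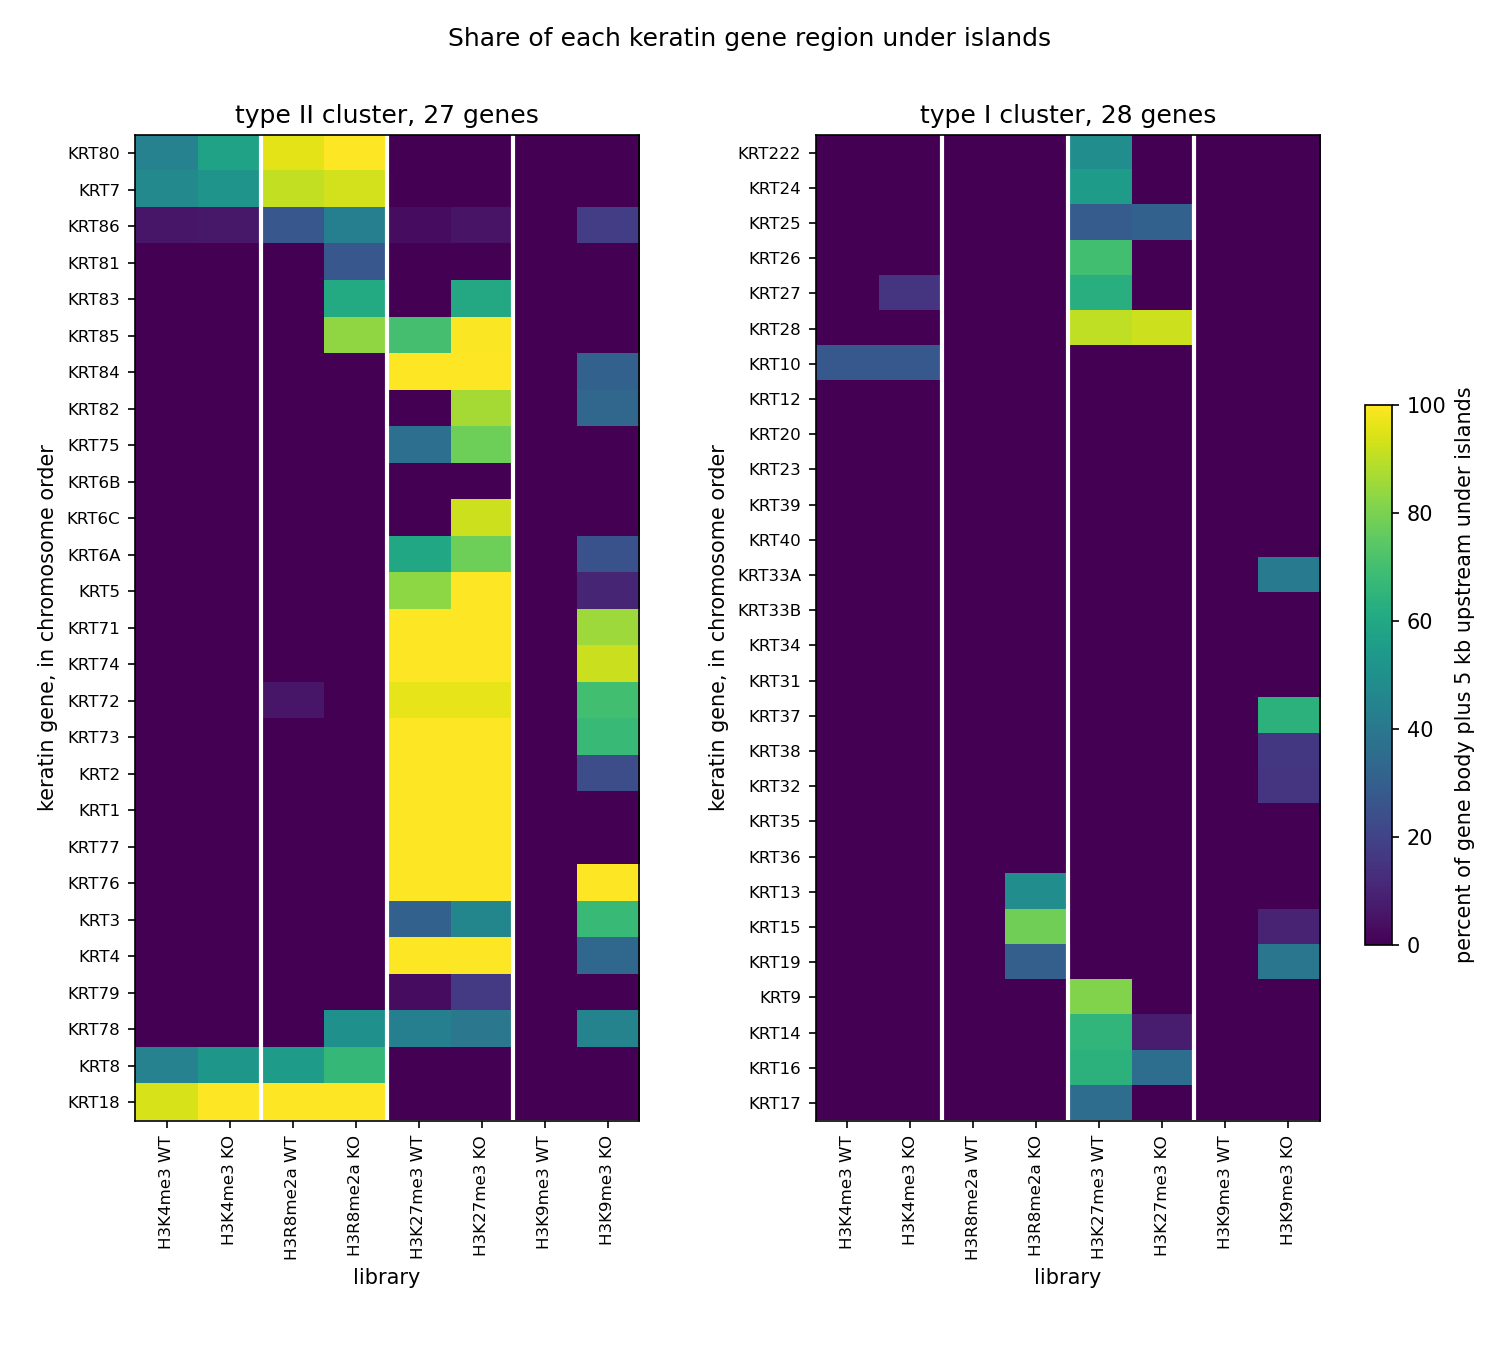
Percent of each keratin gene region (gene body plus 5 kb upstream) under islands, from 0 (dark) to 100 (yellow), for 8 libraries in columns and the 27 type II and 28 type I cluster genes in rows in chromosome order. The H3K9me3 WT column is dark for every gene, 20 genes have a lighter cell in the H3K9me3 KO column, and H3K4me3 is confined to the ends of the type II cluster and, in the type I cluster, to KRT10 and in KO KRT27.

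Of the 6 keratins of simple epithelia, KRT7, KRT8 and KRT18 had H3K4me3 in both cells, and KRT19, KRT20 and KRT23 had none in either. KRT7, which lines ducts and glands, carried H3K4me3 over 11.6 kb in WT against 12.8 kb in KO, and H3R8me2a over 22.4 kb against 23.0 kb. KRT18 had 8.49 kb and 9.04 kb of H3K4me3, and H3R8me2a covered its whole region of 9.04 kb in both. KRT8, its partner, had 25.6 kb and 30.6 kb of H3K4me3 and 31.8 kb and 38.4 kb of H3R8me2a. All 3 genes held more H3K4me3 bases in KO, and none met the rule for a gain. GENCODE starts KRT8 far upstream at the promoter of KRT18, and over the canonical transcript of KRT8 alone H3K4me3 measured 10.8 kb (WT) and 11.7 kb (KO), an extent chosen after the data were seen. Over that same extent H3R8me2a measured 12.9 kb (WT) and 11.5 kb (KO), so there KO had the lower value. KRT80, a type II keratin at the other end of the cluster, had 12.4 kb and 16.2 kb of H3K4me3 and 26.8 kb and 28.0 kb of H3R8me2a. None of these 4 genes had an H3K27me3 or H3K9me3 island in either cell.

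H3K4me3 was rare in the family. Within 2 kb of the canonical start it was found at 5 of 55 keratins (9.09%) in WT and at 5 in KO, against 67.2% and 66.7% of all genes. The fifth gene was KRT10, the suprabasal partner of KRT1, with 2.63 kb in both cells. Its island runs from 38973001 to 38977000 on chromosome 17, across the 3′ end of the gene and short of its start, and it holds the start of KRT10-AS1, an antisense lncRNA, so the island cannot be given to KRT10 alone. H3K4me3 covered the start itself only at KRT80, KRT7, KRT8 and KRT18, in both cells. The 1 gain was KRT27, an inner root sheath keratin, where only KO had an island, of 1.6 kb, inside the gene, which held no annotated start. KRT86, a hair keratin, had 3.86 kb and 4.12 kb over its GENCODE extent, which begins inside KRT7, and 1.15 kb and 0 over its canonical transcript, where the WT island held the start of an antisense lncRNA.

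Between these active ends, the type II cluster lay under H3K27me3, and more of it did in KO as deposited. H3K27me3 covered 40.5% of the cluster in WT, 317.8 kb, and 57.2% in KO, 448.2 kb, a difference of 16.6 percentage points that came to 2.71 with the libraries brought to equal total length. Nearly all of the WT bases, 99.6%, were also covered in KO. The region from KRT71 to KRT77, which holds inner root sheath keratins and the epidermal keratins KRT1 and KRT2, was under 3 WT islands of 61.4, 66.8 and 64.4 kb. In KO it was under islands of 87.6 kb and 141.6 kb, which together started before KRT5 and ended past KRT77. In 9 genes (KRT84, KRT71, KRT74, KRT73, KRT2, KRT1, KRT77, KRT76 and KRT4) the whole region was covered in both cells, so no gain could be seen there by these values.

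The added H3K27me3 lay mostly on the KRT80 side of that domain, over hair and wound keratins. KRT82, a keratin of the hair cuticle, was free of it in WT and had 15.1 kb in KO. KRT6C, a wound keratin, had none and 9.49 kb, and KRT83, a keratin of the hair cortex, had none and 7.32 kb. KRT75, the companion layer keratin, had 5.6 kb and 11.9 kb, a gain that scaling ended. KRT79 had 0.609 kb and 3.01 kb, and KRT85, a hair keratin, had 8.8 kb and 12.4 kb, which did not meet the rule. From KRT83 to KRT82 the covered share was 24.6% in WT and 84.8% in KO, and from KRT75 to KRT5 it was 17.3% and 59.2%. These stretches, like the others named by their first and last gene, were bounded after the values were seen. No gene of the type II cluster had a loss of H3K27me3, against 3.29% of all genes. KRT6B, between KRT75 and KRT6C, had no island of any mark. KRT6A, KRT6B and KRT6C share sequence, and 7.52%, 11.8% and 14.6% of the windows of 75 bases in their regions occurred more than once in GRCh37 on either strand, so a read from those windows cannot be placed in 1 gene. For KRT81 that share was 23.9%, and over all keratin regions 2.31%.

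KRT5, the type II keratin of basal cells, was under H3K27me3 in both cells. The mark lay over 9.11 kb of it in WT and, in KO, over its whole region of 11.0 kb, and it had no H3K4me3 or H3R8me2a in either cell. H3K27me3 covered its start in both cells. Its 1.11 kb of H3K9me3 in KO lay at the far end of the 5 kb upstream and barely met the rule, and over its canonical transcript the value was 0.978 kb and did not. KRT6A had 6.64 kb and 8.64 kb of H3K27me3 and a new H3K9me3 island of 2.8 kb inside the gene.

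H3K9me3 appeared along the H3K27me3 domain of the type II cluster. WT had a single island of 5.2 kb in the cluster, between KRT77 and KRT76 and over no keratin gene, and KO had 21 islands over 192 kb, which is 0.663% and 24.5% of the cluster. KRT76 was covered in full, from 0 in WT to 14.2 kb in KO. KRT72, an inner root sheath keratin, had 0 and 14.6 kb, and its neighbors KRT71, KRT74 and KRT73 had 0 and 12.1, 12.04 and 10.8 kb. In the stretch from KRT71 to KRT73, H3K27me3 stayed at 98.9% while H3K9me3 went from 0 to 72%. KRT3 of the cornea had 0 and 7.73 kb, KRT78 had 0 and 7.28 kb, and KRT82 had 0 and 5.72 kb. KRT4, a mucosal keratin, KRT84 and KRT2 had 4.2, 4.0 and 3.0 kb in KO. KRT1 and KRT77, in the middle of the same H3K27me3 domain, had no H3K9me3 island over their regions. The value of 11.8 kb for KRT86 came from an island that lies between KRT7 and the canonical start of KRT86, and over the canonical transcript KRT86 had none.

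In total, 14 of 27 type II cluster genes had a gain of H3K9me3 (51.9%, against 27.6% of all genes). Of these, 13 had H3K27me3 over part of the region in WT and all 14 had it in KO. Among all 27 genes, 18 had H3K27me3 in WT and 21 in KO. The 13 include KRT86, where the islands of the marks lie apart. Of the 186.8 kb in the type II cluster under H3K9me3 in KO alone, 77.6% lay under WT islands of H3K27me3 and 86.8% under KO islands of H3K27me3. Over the genome those shares were 26.9% and 31.4%. H3K27me3 itself covered 40.5% (WT) and 57.2% (KO) of the cluster, but 8.27% and 11% of the genome. The overlap shares therefore have different baselines, and the higher ones here do not show a closer tie of the marks than elsewhere. None of the 186.8 kb lay under H3K4me3 of either cell, and KRT80, KRT7, KRT8 and KRT18 had no H3K9me3 island. After scaling to equal library totals, H3K9me3 in the cluster was 14 percentage points higher in KO in place of 23.8. By gene, 13 of 27 kept a gain (48.1%, against 19.4% of all genes).

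**Figure D2:**
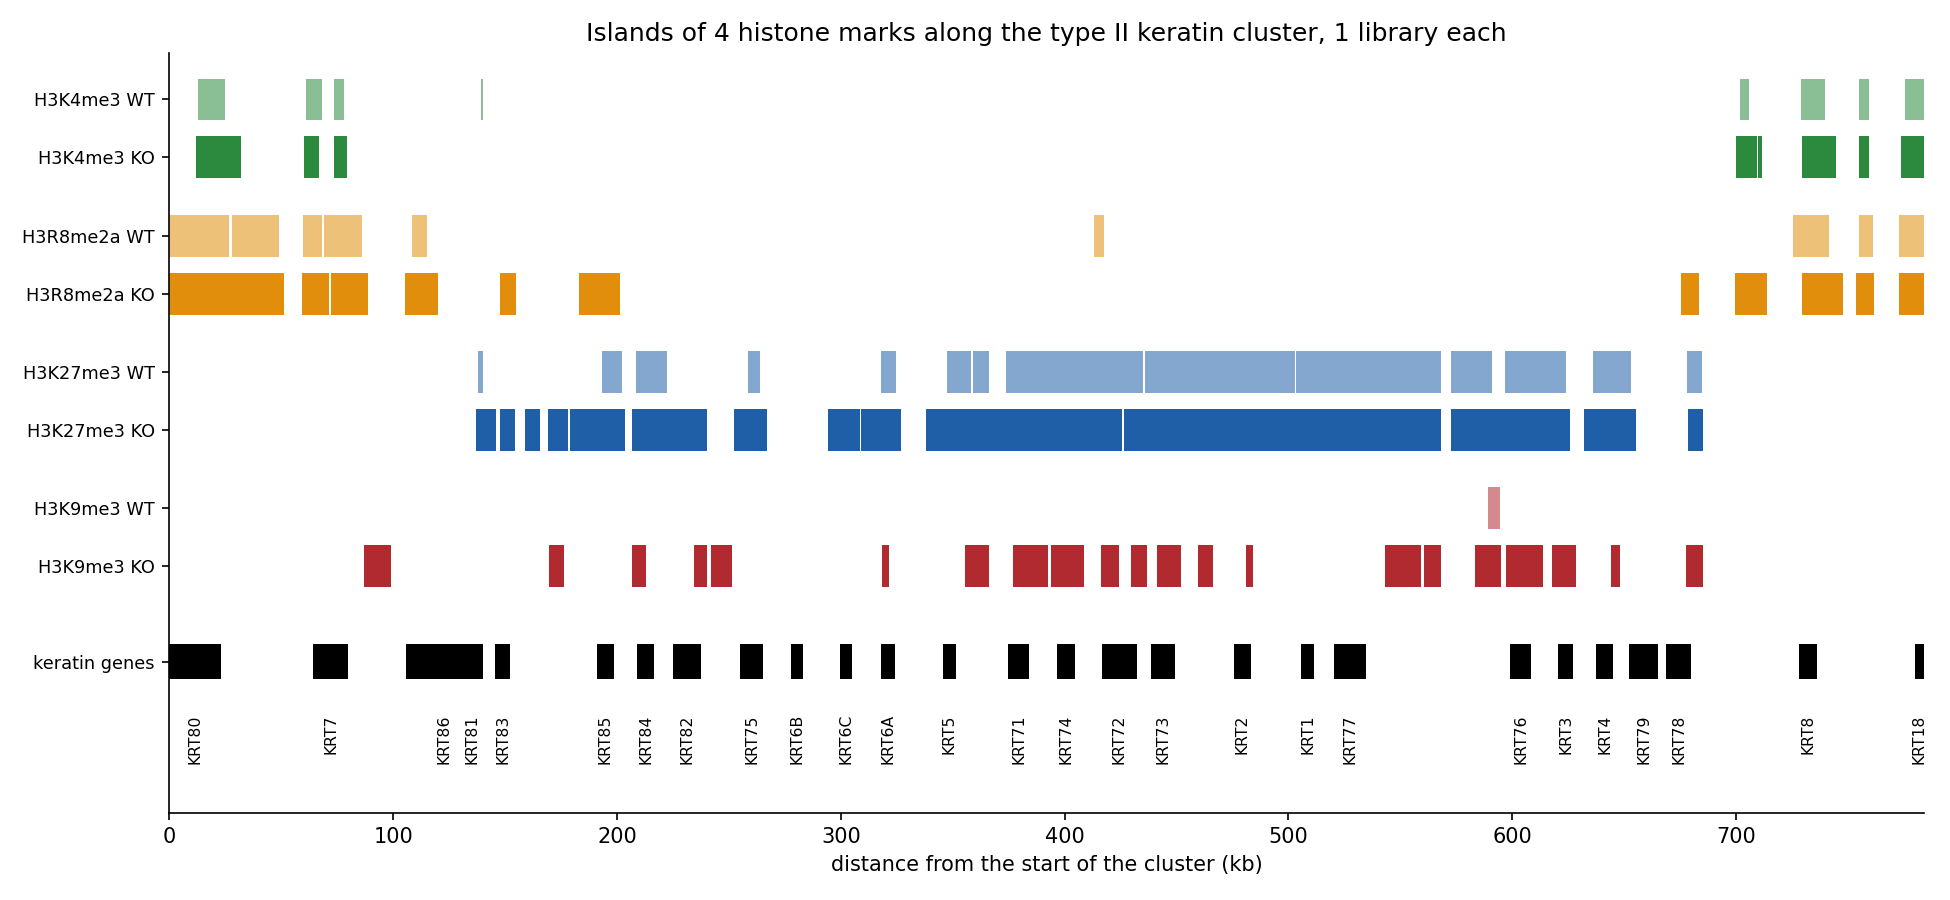
Islands of H3K4me3, H3R8me2a, H3K27me3 and H3K9me3 in WT (pale) and KO (full color) along the type II cluster, with distance from the cluster's start in kb on the x axis and the canonical transcripts of the keratin genes as black boxes (KRT81 lies within the box of KRT86). H3K4me3 takes up the 2 ends, as does most of the H3R8me2a (with KO islands also at KRT83 and KRT85 and a WT island at KRT72), H3K27me3 lies in the middle in both cells, and the 21 H3K9me3 islands of KO lie mostly within the H3K27me3 domain.

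H3K27me3 went the other way in the type I cluster. The mark held 116.4 kb in WT, 12% of the cluster, but 57.4 kb in KO, 5.92%, and 40.4% of the WT bases were covered in KO. No type I cluster gene had a gain, against 6.49% of all genes, and 7 of 28 (25%, against 3.29%) had a loss. In WT, 10 of the 28 had an H3K27me3 island over their region, against 5560 of 20136 genes. In KRT14, the basal partner of KRT5, it went from 6.35 kb to 0.747 kb. KRT17, a wound keratin, had 3.71 kb and 0, and its neighbor KRT16, which pairs with KRT6A in wounds, had 7.15 kb and 4.0 kb, short of the rule. KRT9 of palms and soles had the largest loss, from 9.11 kb to 0. At the other end of the cluster, KRT26 had 7.65 kb and 0, KRT222 had 7.63 kb and 0.033 kb, KRT27 had 6.74 kb and 0, and KRT24 had 5.96 kb and 0. KRT25 and KRT28, inner root sheath keratins beside KRT26 and KRT27, had 3.6 kb and 3.8 kb, and 11.6 kb and 11.8 kb. The loss skipped genes in the same row, and both ends of the cluster held genes with a loss. From KRT222 to KRT28 the covered share was 53.8% in WT and 24.5% in KO, and from KRT9 to KRT17 it was 47.5% and 18.3%.

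Of the 7 genes with a loss, none took up H3K9me3 or H3R8me2a, and KRT27 alone had H3K4me3 in KO. Over all genes 27.6% had a gain of H3K9me3 and 20.0% a gain of H3R8me2a. In the type I cluster those shares were 21.4% and 10.7%. With only 7 genes, a count of none is not read as particular to them. At KRT14 and KRT17 no island of any mark remained within 2 kb of the canonical start in KO. Across the family, H3K27me3 within 2 kb of the canonical start was found at 24 of 55 genes in WT (43.6%) and 21 in KO (38.2%), against 20.5% and 21.5% of all genes, and no keratin had H3K4me3 and H3K27me3 together at the promoter. Only 5 keratins had H3K4me3 there in each cell. The joint state has no share over all genes beside it and is not read as particular to keratins.

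Between its ends the type I cluster had no H3K27me3. The stretch from KRT10 to KRT40 had neither repressive mark in either cell. The array of keratin-associated protein genes between KRT40 and KRT33A, which code for matrix proteins of hair, had no H3K27me3 and had H3K9me3 over 0 of its bases in WT and 5.56% in KO. Over the hair keratins from KRT33A to KRT36 the values were 0 and 14.1%. The 6 type I cluster genes with a gain of H3K9me3 all lay there or just after it, and none had H3K27me3 in either cell. Their share of the cluster's genes, 21.4%, was below the 27.6% of all genes. KRT37, KRT33A, KRT32 and KRT38, all hair keratins, had 5.8, 4.06, 2.0 and 1.6 kb in KO. KRT19 had 0 in WT and 3.8 kb in KO, an island that covered its start. KRT15, a basal keratin also found in hair stem cells, had 1.38 kb in its upstream window, which was part of the KRT19 island and lay in the body of KRT19, and had none over its canonical transcript. Of the 44.4 kb of the type I cluster under H3K9me3 in KO alone, 0% lay under H3K27me3 of either cell. In the type II cluster those shares were 77.6% and 86.8%. H3K27me3 itself covered 12% (WT) and 5.92% (KO) of the type I cluster, and 40.5% and 57.2% of the type II cluster.

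**Figure D3:**
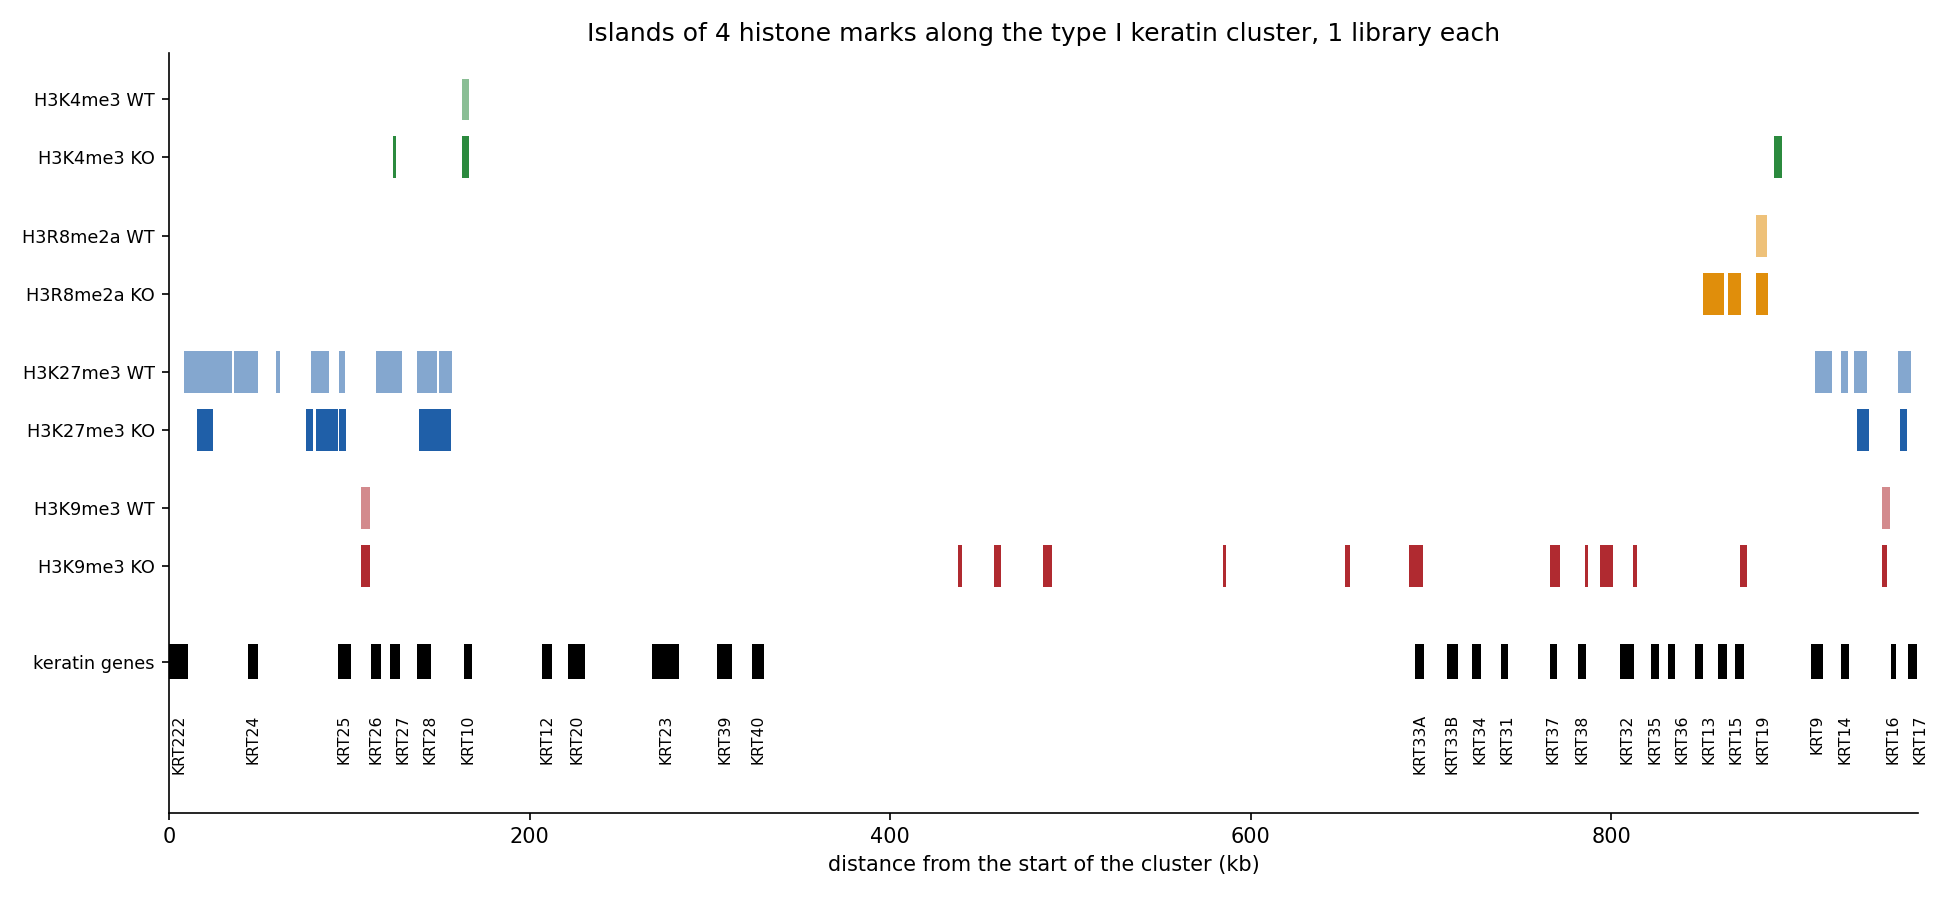
Islands of the same 4 marks in WT (pale) and KO (full color) along the type I cluster, with distance from the cluster's start in kb on the x axis and the keratin genes as black boxes, with some names shifted to the right for space. H3K27me3 covers 12% of the cluster in WT and 5.92% in KO, at its 2 ends, and the H3K9me3 islands that KO alone holds lie over the middle, where neither cell has H3K27me3.

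**Figure D4:**
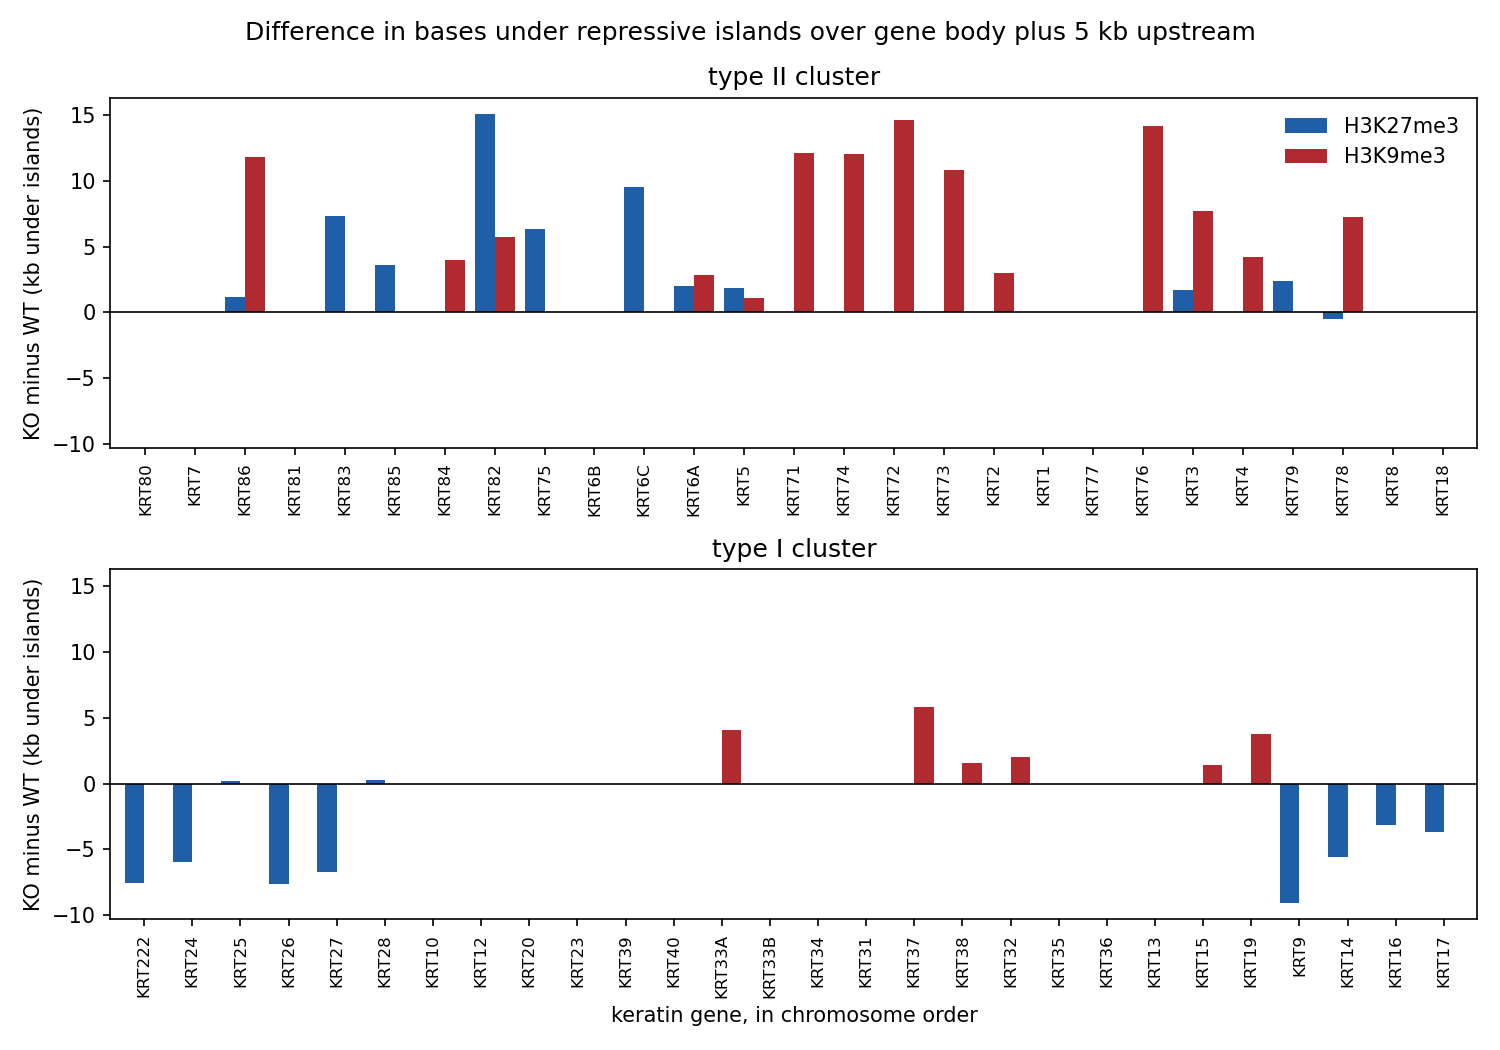
KO minus WT bases in kb under H3K27me3 (blue) and H3K9me3 (red) islands over the body plus 5 kb upstream of each keratin gene in chromosome order, 1 library per genotype. In the type II cluster the H3K9me3 bars reach up to 14.6 kb (KRT72) and the H3K27me3 bars are upward or at 0 but for KRT78, and in the type I cluster the H3K27me3 bars of KRT9, KRT14, KRT16 and KRT17 and of KRT222, KRT24, KRT26 and KRT27 point down.

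H3R8me2a was present in KO at keratins that had none in WT. In the type II cluster, KRT85 had 0 and 10.4 kb, KRT78 had 0 and 8.2 kb, KRT83 had 0 and 7.4 kb and KRT81 had 0 and 2.9 kb. In the type I cluster, KRT15 had 0 and 10.8 kb, KRT13, a mucosal keratin, had 0 and 4.76 kb and KRT19 had 0 and 2.93 kb. These values came from KO islands of 11.4 kb and 7.2 kb, both of which overlap KRT15. The KRT13 bases were part of the first and lay wholly upstream of the gene, and the KRT19 bases were part of the second. H3R8me2a covered 68.1% of the stretch from KRT13 to KRT19 in KO. KRT86 went from 17.5 kb to 27.9 kb over its GENCODE extent, which begins inside KRT7, without meeting the rule. Over its canonical transcript KRT86 had 6.8 kb in WT and 14.6 kb in KO, which met the rule for a gain. The 1 loss was KRT72, from 1.23 kb to 0. H3R8me2a islands reached within 2 kb of the canonical start of 4 keratins in WT (7.27%) and 11 in KO (20%), against 28.4% and 36.3% of all genes. The 4 were KRT80, KRT7, KRT8 and KRT18, which had H3K4me3 as well, and none of the 7 others had H3K4me3. At KRT83 and KRT85 the H3R8me2a of KO was at a promoter with H3K27me3, at KRT19 at one with H3K9me3, and at KRT78 at one with both.

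Promoter states grouped the 55 genes by cell and cluster. Since 1 base within 2 kb of the canonical start was enough, some states rest on the edge of the window. KRT16 had 0.019 kb of H3K27me3 there in KO, and KRT17 had 0.227 kb there in WT. In WT, 26 promoters had no island (47.3%, against 19.8% of all genes) and 24 had H3K27me3 alone (43.6%, against 11.2%). A further 4 had H3K4me3 with H3R8me2a (7.27%, against 25.9%) and 1 had H3K4me3 alone (1.82%, against 31%). In KO, 21 had no island (38.2%, against 16.1%) and 9 had H3K27me3 alone (16.4%, against 8.72%). Another 9 had H3K27me3 with H3K9me3 (16.4%, against 3.42%), a state no keratin had in WT. Of the 24 promoters with H3K27me3 alone in WT, 8 kept that state, 7 added H3K9me3 (KRT71, KRT74, KRT72, KRT73, KRT2, KRT76 and KRT4), 7 were left with no island (KRT222, KRT24, KRT26, KRT27, KRT9, KRT14 and KRT17), KRT85 added H3R8me2a and KRT78 added H3R8me2a and H3K9me3. The 7 that added H3K9me3 are all in the type II cluster and the 7 left with no island are all in the type I cluster. These changes of state are given without a share over all genes.

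By tissue class, where the shares of all genes were again 27.6% for a gain of H3K9me3, 6.49% for a gain and 3.29% for a loss of H3K27me3 and 20.0% for a gain of H3R8me2a, the 6 simple epithelial keratins had no H3K27me3 and 1 gain of H3K9me3, KRT19. Of the 3 basal keratins, KRT14 had a loss of H3K27me3, KRT5 and KRT15 had small gains of H3K9me3 upstream, and none had H3K4me3. The 5 stress and wound keratins had 1 gain of H3K27me3 (KRT6C), 1 loss (KRT17) and 1 gain of H3K9me3 (KRT6A). The 14 suprabasal and differentiation keratins had 5 gains of H3K9me3 (35.7%), and 1 gain and 2 losses of H3K27me3. All 9 keratins of the inner root sheath and companion layer had H3K27me3 in WT, and they had 4 gains of H3K9me3 (44.4%), 1 gain of H3K27me3 and 2 losses. The 17 hair keratins had 7 gains of H3K9me3 (41.2%), 2 of H3K27me3 (11.8%) and 3 of H3R8me2a (17.6%). KRT222, the 1 keratin outside these classes, had a loss of H3K27me3. The classes named hold 3 to 17 genes, so 1 gene moves these shares by several points. The basal partners KRT5 and KRT14 stood in different states in KO, since KRT14 had a loss of H3K27me3 and KRT5 did not, while the simple epithelial partners KRT8 and KRT18 shared H3K4me3 and H3R8me2a in both cells.

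The clusters were set beside the megabase on either side and the whole chromosome, with no test. In the type II cluster the ratio of KO to WT bases for H3K9me3 was 36.9, against 3.9 over chromosome 12 and 3.69 over the genome, and the flanks went from 0.84% to 3.6% and from 0% to 2.2%. The ratio rests on a WT value of 5.2 kb. For H3K27me3 the ratio was 1.41, against 1.31 over chromosome 12 and 1.33 over the genome, so it was near that of the genome. The flanks held 7.4% and 5.8% on the KRT80 side and 14.9% and 16.2% on the KRT18 side. In the type I cluster the H3K27me3 ratio was 0.493, against 1.12 over chromosome 17, with flanks of 17.1% and 19.1% and of 3.78% and 3.54%. H3K9me3 in the type I cluster went from 0.99% to 5.32%, a ratio of 5.38 against 5.07 over chromosome 17, which is near the background of the chromosome. H3R8me2a covered 15.1% and 22.9% of the type II cluster, a ratio of 1.51 against 1.61 over the genome, and after scaling KO was lower by 1.17 percentage points. For the type I cluster it was 0.618% and 2.6%. H3K4me3 covered 6.85% and 9.48% of the type II cluster and 0.412% and 1.01% of the type I cluster.

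**Figure D5:**
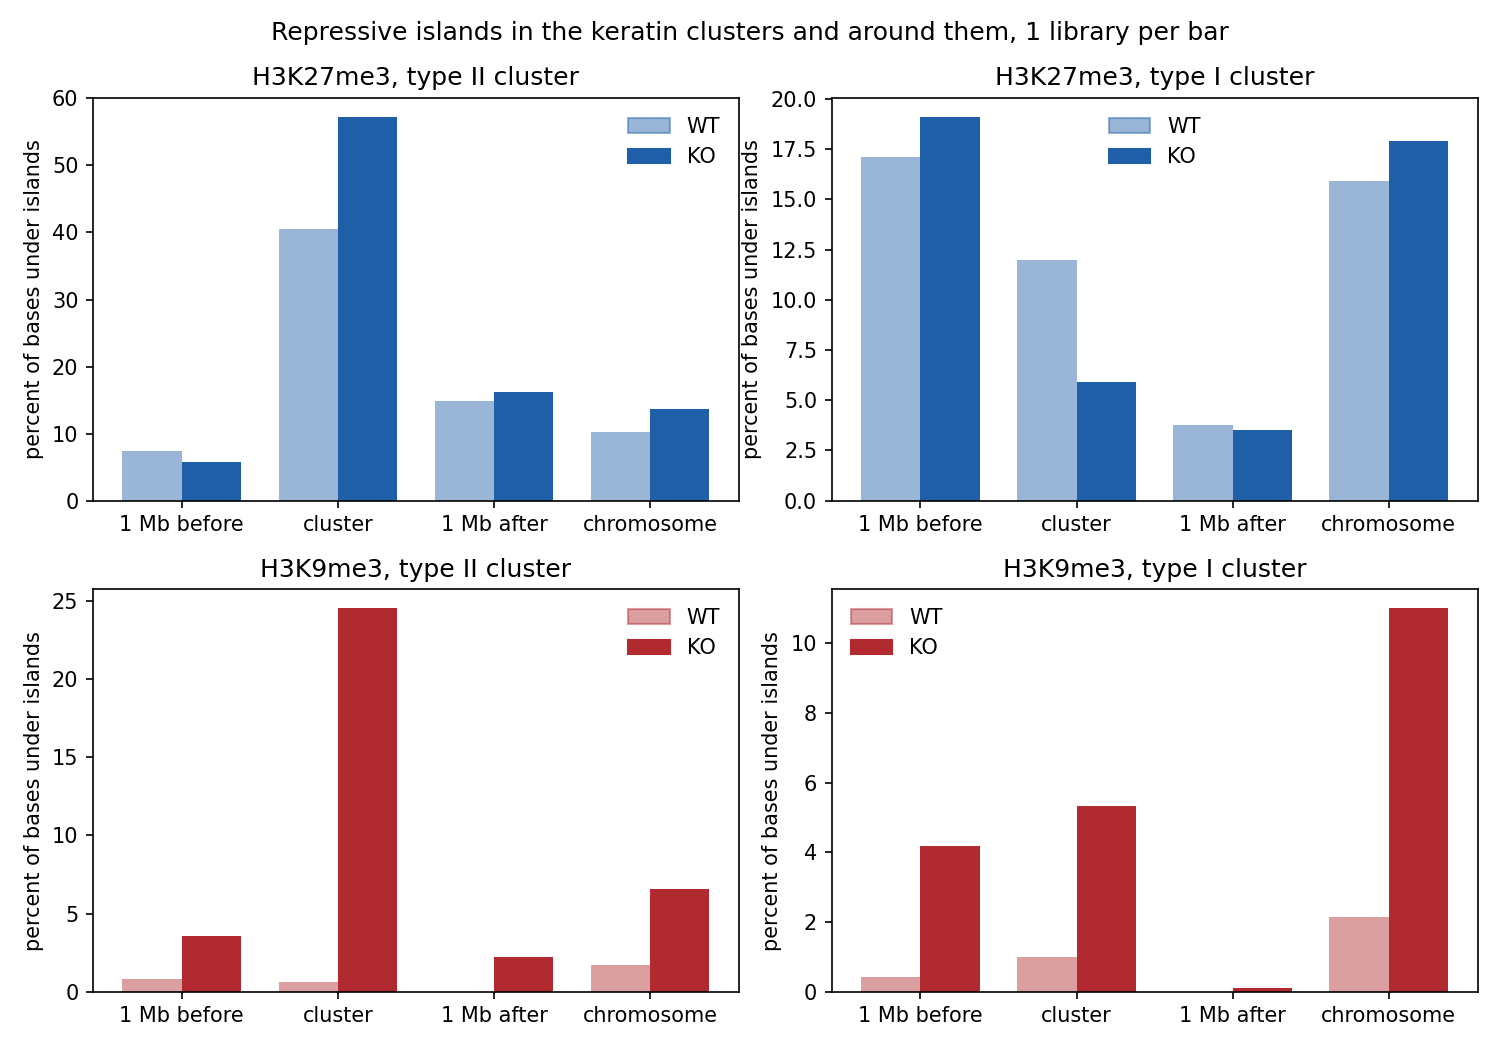
Percent of bases under H3K27me3 (top) and H3K9me3 (bottom) islands in the type II (left) and type I (right) cluster, in the 1 Mb before and after it and over its chromosome, with WT pale and KO full color, 1 library per bar and a separate scale in each panel. H3K9me3 of KO reaches 24.5% in the type II cluster against 6.59% of chromosome 12, and H3K27me3 of KO is lower than WT in the type I cluster, 5.92% against 12%, while chromosome 17 has 17.9% against 15.9%.

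Genes that work with keratins were counted the same way and are read against the shares of all genes, which were 27.6% for a gain of H3K9me3, 6.49% and 3.29% for a gain and a loss of H3K27me3, and 20.0% for a gain of H3R8me2a. Of 94 keratin-associated protein genes, 17 (18.1%, below the share of all genes) gained H3K9me3 by the rule, 6 gained (6.38%) and 1 lost H3K27me3, 1 gained H3R8me2a and none held H3K4me3 in either cell. Of 15 other intermediate filament genes, H3K9me3 was gained by 3 (20%) and H3R8me2a by 4 (26.7%), while H3K27me3 and H3K4me3 each had 1 gain and 1 loss. VIM, the filament protein of mesenchymal cells, held H3K4me3 over 9.0 kb (WT) and 10.6 kb (KO). Of 17 desmosome and plakin genes, which anchor keratin filaments at cell contacts, 6 (35.3%, against 27.6%) had a gain of H3K9me3, H3R8me2a had 1 gain and 1 loss, and 1 gene, DSG4 of hair, a loss of H3K27me3, from 11 kb to 0. PKP1, a desmosomal plaque protein, had 0 and 19.0 kb of H3K9me3. Among 13 transcription and splicing factors of epithelial cells, H3K9me3 was gained by 7 (53.8%, against 27.6%), H3K27me3 by 2 (15.4%) and H3R8me2a by 3 (23.1%), with 1 loss of H3R8me2a. TP63, the master factor of basal cells, had 6.2 kb and 26.4 kb of H3K9me3 and no other mark in either cell. None of that H3K9me3 lay within 2 kb of the canonical start. GRHL2, an activator of epithelial genes, had 8.35 kb and 20.2 kb of H3K27me3 and 0 and 9.75 kb of H3K9me3. GRHL3 had 26.6 kb and 68.6 kb of H3K27me3 and 0 and 12.2 kb of H3K9me3. It also had 4.0 kb and 7.8 kb of H3K4me3, which reached its promoter in both cells, and 0 and 3.17 kb of H3R8me2a. Within 2 kb of the canonical start, GRHL3 had no H3K9me3 in either cell and GRHL2 had 3.67 kb in KO. These examples were picked after their values were seen, and the shares above take no account of gene length.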

How the data were processed

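ChIP-seq of BEAS-2B cells gave 4 marks in WT and in KO and 1 input, which has no islands and was not used. The deposited file holds islands, called by the authors per library, as other values (chromosome, start and end on hg19), with no height. The authors aligned 75-nt reads with BWA, extended them to 200 bp and sampled tags down to the smallest library, and the submitters' processing notes name SICER 1.1. Depth is unknown. Genes came from GENCODE 44 on GRCh37, and each symbol was counted once. Bases were summed with Python 3.11.15 and numpy 2.4.6, and all keratin sums were checked with bedtools 2.31.1. The code was tested on simulated data. Figures used matplotlib 3.10.9.

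The genes named are keratins with H3K4me3 within 2 kb of the start, for each mark the 5 that gained and the 5 that lost the most bases, and KRT5, KRT14, KRT7, KRT8, KRT18, KRT19 and KRT17. Other genes were named after their values were seen. The members and lists (keratin classes, keratin-associated proteins, other intermediate filaments, desmosome and plakin partners, factors, cell type markers) were chosen with earlier results of these data known. Other settings tried were the body without upstream bases, a factor of 1.5, 5 kb on both sides of the start, scaled libraries, a minimum island length of 1 kb, merging across gaps of up to 1 kb, clusters with 100 kb added, promoters of 1 kb on both sides and, added after the data were seen, canonical transcripts. Other promoter sequences are not reported here.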

Additional observations from a re-analysis of the deposited data

Results flagged for a closer look

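H3K27me3 differed in direction between the keratin clusters. In the type I cluster KO minus WT was -6.08 percentage points of covered bases, and in the type II cluster it was 16.6, each with 1 library per genotype. Once each library was scaled to an equal total, the values were -8.82 and 2.71. The difference between the clusters was not tested. By gene, 8 of 28 type I cluster genes had fewer bases in KO and 2 had more. By the rule of size 7 of them had a loss and 0 a gain, while in the type II cluster 5 of 27 had a gain and 0 a loss. Over all genes 6.49% had a gain and 3.29% a loss.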

How the results depend on the processing

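Of 104 alternative values for 24 results, 93 stayed within 1.5 times of the reported value with the same sign. With libraries scaled to the same total length, KO minus WT in the type II cluster was 1.5 percentage points for H3K4me3, 2.71 for H3K27me3, 14 for H3K9me3 and -1.17 for H3R8me2a, which reversed, and in the type I cluster 1.06 for H3K9me3 and 1.3 for H3R8me2a. Adding 100 kb on both sides gave 0.479 for H3R8me2a in the type I cluster. Losses of H3K4me3 numbered 1 with the gene body alone and 1 with the canonical transcript, in place of 0, and that gene was KRT86 in both. Within 5 kb of the start, gains of H3K27me3 numbered 3 in place of 5 and losses of H3R8me2a 0 in place of 1. Scaling takes out the larger KO totals by construction, and the cause of the other shifts was not tested. No paired analysis was possible because each condition has 1 library. Depth limits cannot be given, since the islands hold no read number.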

Other observations

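Some islands of the keratin clusters lay between the keratin genes. Between KRT78 and KRT8 on chromosome 12, WT had an H3K4me3 island of 4.4 kb from 53264401 to 53268800, and KO had 9.2 kb from 53262801 to 53272000 and a further 1.8 kb beside it. H3R8me2a there was absent in WT and covered 14.2 kb in KO. In the type I cluster, KO alone had 4.2 kb of H3K4me3 from 39701401 to 39705600, between KRT19 and KRT9. None of these islands held an annotated transcript start. WT and KO shared an H3R8me2a island of 6.0 kb and 6.6 kb beside it, from 39691401 to 39697400 in WT.

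H3K9me3 was also present outside the genes. Both cells had the islands that start at 38917201 in WT and 38917401 in KO, between KRT25 and KRT26 (5.2 kb and 4.6 kb), and at 39761201, between KRT14 and KRT16 (4.4 kb and 2.6 kb), in a cluster where KO otherwise had more of the mark. In the type II cluster, KO had 15.8 kb and 7.4 kb of H3K9me3 in islands from 53106201 and from 53123601, between KRT77 and KRT76, that no WT island overlapped. A further KO island of 11.6 kb there overlapped the WT island of 5.2 kb.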
